A study of Homo sapiens with 18 samples.

Results

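Compact genes with many short introns were taken as the protein-coding genes that span under 6000 bases, whose annotated exons merge into 8 or more separate blocks, and whose mean raw count over the 12 libraries of parental cells was 100 or more. Of 57500 genes counted, 19583 were protein-coding and 11777 of those reached the count floor, and 79 genes met all limits. Apart from annotation, members were selected on their measured mean count only, so the level of a member is a description and not a finding. At any count, 147 protein-coding genes met the span and block limits.

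The study silenced DNAJC17, which encodes a J-domain protein that works with HSP70 chaperones and is found with the spliceosome, in a pair of human sarcoma cell lines. ES8 is a Ewing sarcoma line and Rh30 a rhabdomyosarcoma line, and both carried dCas9-KRAB, a nuclease-dead Cas9 fused to a transcriptional repressor (CRISPRi). In each line, parental cells received a control guide (sgCTL) or a guide against DNAJC17 (sgDNAJC17), and cells that stably express 3xFLAG-DNAJC17-dRRM, an allele without the RNA recognition motif (ΔRRM below), received sgDNAJC17. All cells were selected with puromycin for 72 h after lentiviral transduction, and total RNA of 3 replicate platings per group was sequenced in 18 libraries. No ΔRRM library with sgCTL was analysed here, so the allele and the knockdown change together in every comparison of ΔRRM with sgCTL. The 3 replicates of a group are platings, and p-values therefore measure only the spread between these platings.

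Introns are removed by the spliceosome one by one, and the number of splicing events per transcript grows with the number of introns. In short introns the splice sites are commonly recognised as a pair across the intron, whereas long introns depend more on recognition of the short exons between them. Compact, exon-rich genes are often GC-rich and housekeeping in function, and their introns are frequently annotated as retained in some transcripts.

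Library totals ranged from 35342393 to 48245989 gene counts. DNAJC17 served as the check of the labels, at 11.2 to 12.4 CPM (gene counts scaled to the library total) in ES8 sgCTL and 1.56 to 1.96 in ES8 sgDNAJC17. In Rh30, DNAJC17 ranged from 10.8 to 11.9 CPM with sgCTL and from 2.20 to 2.72 CPM with sgDNAJC17. Each ΔRRM library held at least 283 CPM of DNAJC17, which includes reads from the transgene. The summed level of 7 Ewing sarcoma markers was 1574 to 1643 CPM in ES8 sgCTL and 585 to 626 CPM in Rh30 sgCTL. That of 7 rhabdomyosarcoma markers was 3097 to 3223 CPM in Rh30 sgCTL and 118 to 120 CPM in ES8 sgCTL. Each sum was higher in its own line, and 2 of the 7 markers reached 1 CPM in the other line. One library stood apart for the members: the median deviation from the sgCTL mean was 0.14 on the log2 scale in ES8 sgDNAJC17 replicate A, against -0.06 in replicate B and -0.06 in replicate C. Counts of all members and of exon-rich members called in the ES8 knockdown are therefore given with and without replicate A. Other ES8 knockdown counts include replicate A.

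The members spanned a median of 4918 bases and their merged exons filled a median of 53.8% of the span. The median gap between blocks was 148 bases over members, against 1614 bases over the 7936 protein-coding genes with 8 or more blocks and a span of 6000 bases or more. The median GC content of the canonical transcript was 58.5% in members and 46.99% in those longer genes. A transcript annotated as retaining an intron was listed for 62 of the 79 members (78.5%), beside 71.3% of the longer many-block genes and 39.0% of the 1087 compact genes with fewer blocks. The shortest member was HSD17B8 (a mitochondrial fatty acid synthesis enzyme) at 2189 bases, followed by SMPD2 at 3156 and AGER at 3356. ELMO3 had the most blocks (20), CD63 had 13, and GTF2H4, a TFIIH subunit, PPAN and SLC7A3 had 12 each. The narrowest median gaps were those of MSTO1 (77 bases), PPAN (82 bases), and GHDC and WDR24 (87 bases each).

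The block count is not the same as the exon count of a mature mRNA, since retained-intron and alternative transcripts fuse neighbouring exons and add others. Of the 79 members, 17 had fewer than 8 exons in the Ensembl canonical transcript, and 37 had more canonical exons than blocks. Conversely, 95 compact protein-coding genes with the same count floor and 8 or more canonical exons fell outside the rule because their blocks merged to under 8, and 84 of these had a retained-intron transcript. GAPDH (9 canonical exons in 7 blocks), RPLP0, SHMT2 and CALR were among them. At the span limit, CCDC74A (5991 bases) and PCOLCE (5998) lay just inside, and PRRT1 (6014) and NDUFS8 (6027) just outside. At the count floor, AGER (101 counts) and HSD17B8 (103 counts) lay just inside, and RHEBL1 (73.3) and ASIC3 (68.9) just outside. At the block limit, 42 members had exactly 8 blocks and 49 other compact genes had 7.

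The first question was how the mRNA levels of these genes changed when DNAJC17 was silenced. In ES8, 17 members fell and 11 rose among 79 tested, and in Rh30, 23 fell and 14 rose among 76 tested (edgeR quasi-likelihood test, Benjamini-Hochberg adjusted p below 0.05 over all genes). THOC6, LMF2, RCOR2 and PCED1A fell in both lines, by 0.38 to 0.68 on the log2 scale, and EIF5A, CD63, ALYREF and PHF23 rose in both, by 0.24 to 0.36. No member changed 2-fold in ES8, where 1.66% of genes rose and 0.286% fell by that much. In Rh30 LY6E alone rose 2-fold and no member fell 2-fold, beside 0.767% and 0.786% of genes. The background was 13.8% of 17143 genes called down and 13.6% called up in ES8, where members stood at 21.5% and 13.9%. In Rh30 the background was 16.2% down and 16.1% up of 15391 genes, and members stood at 30.3% and 18.4%. These backgrounds include genes that could not be members by biotype or count. Among protein-coding genes with the count floor, 18.04% of 11552 were called down and 15.87% up in ES8. In Rh30, 20.34% of 11064 such genes were called down and 19.53% up. Beside this matched set, members fell more often in both lines, by a smaller margin, and rose less often. These differences were not tested. In whole-population RNA, fewer expressing cells and less RNA per cell cannot be told apart. Without ES8 sgDNAJC17 replicate A, 30 members fell and 14 rose, whereas 8 or 9 fell without any other single ES8 library. In Rh30, 13 fell and 7 rose without sgDNAJC17 replicate B and 14 fell and 8 rose without sgCTL replicate A. In Rh30 the replicate letters deviated together over well-counted genes, and with the letter as a block 28 members fell and 21 rose. The shares of all genes called in these alternative fits are not given here. Their counts therefore show how calls depend on single libraries and the block, and are not set against a background.

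The typical change of members was below that of genes with fewer blocks in both lines. In Rh30 it was near that of longer genes with as many blocks, and in ES8 it lay between those longer genes and all genes tested. The median log2 fold change of members was -0.04 in ES8 and -0.05 in Rh30, beside -0.02 and 0.00 over all genes tested. Longer genes with as many blocks had medians of -0.08 in ES8 and -0.05 in Rh30, with 22.7% and 25.1% of them called down. Compact genes with fewer than 8 blocks had medians of 0.14 and 0.09, with 6.0% and 10.0% called down and 33.4% and 27.3% called up. Longer genes with fewer than 8 blocks had medians of 0.07 and 0.11. These are descriptions of the classes, and the difference between classes was not tested.

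Within the members, the response varied with the number of exons in the canonical transcript, which the rule did not use. Of the 27 members with 11 or more canonical exons, 10 fell in ES8 and 12 fell in Rh30, while none rose in either line. Their median log2 fold change was -0.14 in ES8 and -0.21 in Rh30. Leaving out 1 library at a time gave 5 to 16 down in ES8 and 7 to 12 down in Rh30, with none up. Of all 44 compact protein-coding genes with the count floor and 11 to 15 exons, members included, 13 fell and 2 rose in ES8. In Rh30, 15 of those 44 fell and 1 rose. Longer genes with 11 to 15 exons had 381 down and 220 up of 2156 in ES8, and 446 down and 279 up of 2069 in Rh30. Of the 17 members with fewer than 8 canonical exons, 6 rose and 1 fell in ES8, with a median of 0.14. The same 17 members had 9 up and 4 down in Rh30, with a median of 0.20. Members with 8 to 10 canonical exons lay between, with medians of 0.04 over 35 genes in ES8 and 0.00 over 32 genes in Rh30. Without ES8 sgDNAJC17 replicate A, 16 of the 27 exon-rich members fell and none rose, and the median was -0.20. After correction for GC content and length, 16 of the 27 fell and 1 rose in ES8 and 10 fell and 1 rose in Rh30.

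**Figure D1:**
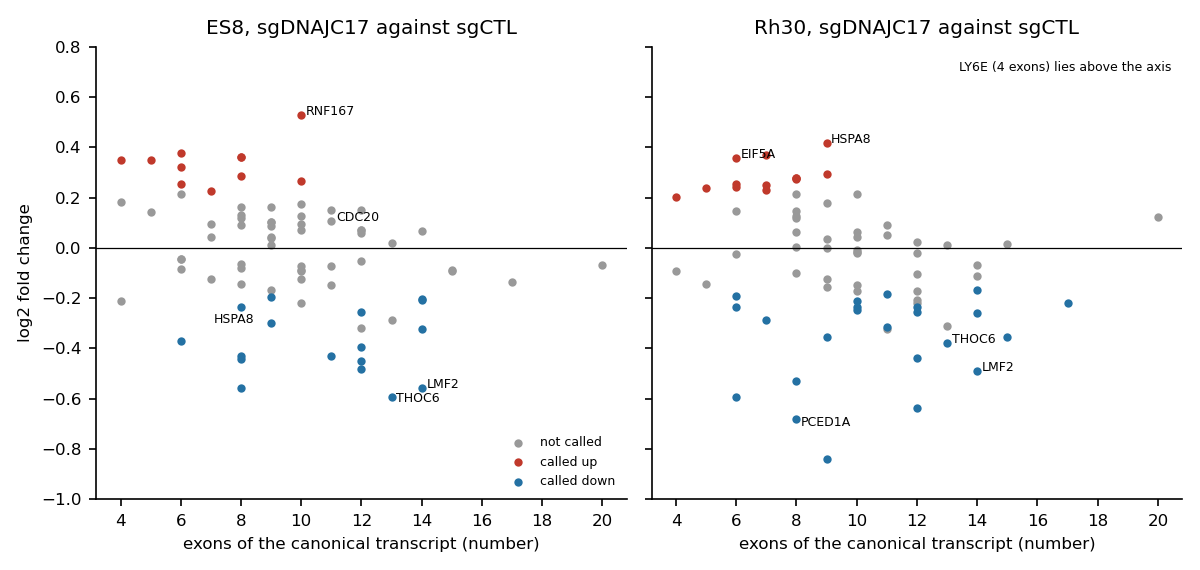
Log2 fold change of each member (points) against the number of exons in its canonical transcript, in ES8 (left) and Rh30 (right); red points were called up, blue points called down and grey points were not called. LY6E in Rh30 is above the axis, and no red point lies at 11 or more exons in either line.

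Across members the Spearman correlation between log2 fold change and canonical exon number was -0.40 in ES8 (n = 79 genes) and -0.42 in Rh30 (n = 76 genes). After correction for GC content and length it was -0.35 and -0.38. Merged blocks, the feature the rule did use, gave a weaker value of -0.15 in ES8. Other features moved with the same fold changes. The mean count correlated at 0.46 in ES8 and 0.39 in Rh30, and GC content at -0.18 and -0.49. All points come from the same 6 libraries in each line, genes are not independent replicates, and the parts of exon number, count and GC content in the pattern were not separated.

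The exon gradient was also present outside compact genes. Over all protein-coding genes with the count floor, the same correlation was -0.42 in ES8 (n = 11530 genes) and -0.40 in Rh30 (n = 11045 genes). Among genes spanning under 6000 bases with 11 to 15 canonical exons, the median log2 fold change was -0.14 in ES8 and -0.17 in Rh30 over 44 genes. Among longer genes with 11 to 15 exons it was -0.05 over 2156 genes in ES8 and -0.03 over 2069 genes in Rh30. The longer genes reached -0.28 in ES8 and -0.22 in Rh30 only with 21 or more exons. The median GC content in the 11 to 15 exon bin was 60.1% for compact genes and 47.7% for longer genes in ES8. The difference between compact and longer genes was not tested.

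**Figure D2:**
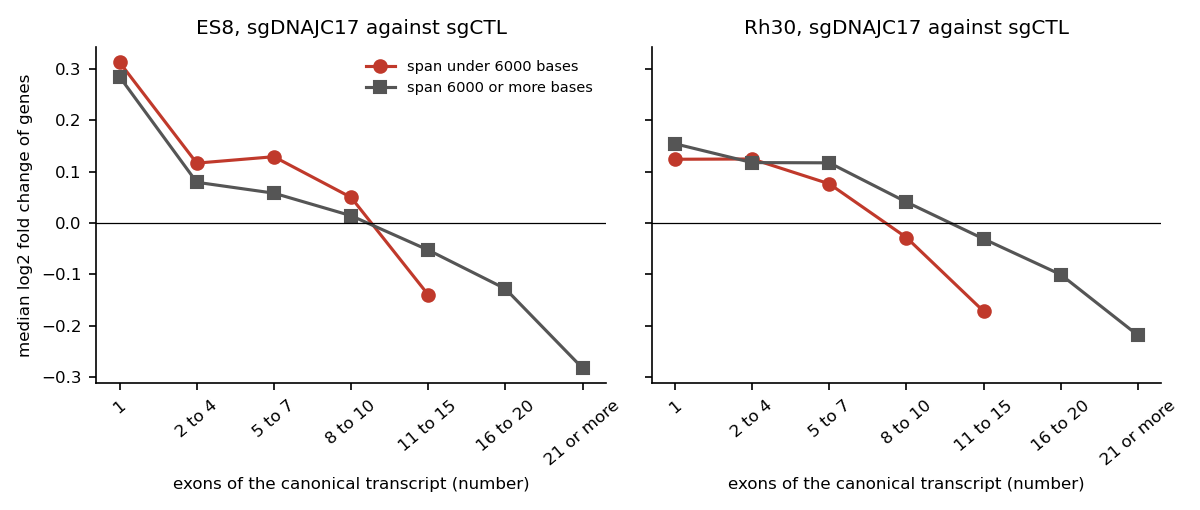
Median log2 fold change of protein-coding genes with the count floor by number of canonical exons, for spans under 6000 bases (red circles) and of 6000 bases or more (grey squares), in ES8 (left) and Rh30 (right). Bins of fewer than 20 genes are not drawn; at 11 to 15 exons compact genes lie at -0.14 and -0.17 and longer genes at -0.05 and -0.03.

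In single libraries, the median deviation of the 27 exon-rich members from the sgCTL mean was -0.19, -0.24 and -0.24 in the 3 Rh30 sgDNAJC17 libraries, below the range of -0.03 to 0.01 in Rh30 sgCTL. In ES8 sgDNAJC17 it was -0.16 in replicate B and -0.19 in replicate C but 0.01 in replicate A, which overlapped the sgCTL range of -0.03 to 0.03. In the ΔRRM libraries of ES8 the same median ranged from -0.02 to 0.18. In those of Rh30 it ranged from -0.37 to -0.11.

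**Figure D3:**
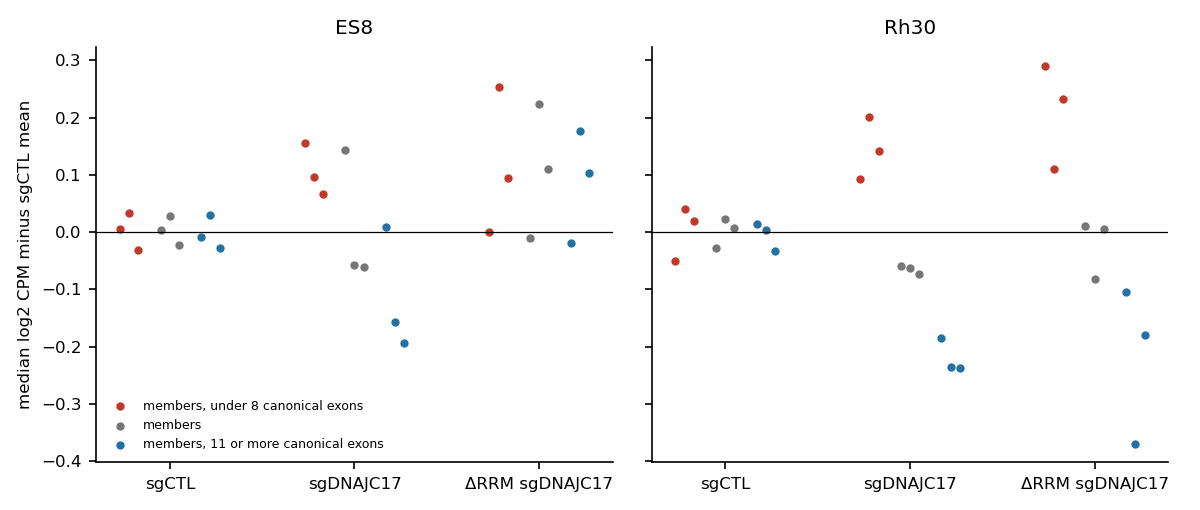
Median over members of the log2 CPM minus the mean of the line's sgCTL libraries, 1 point per library, for members with under 8 canonical exons (red), all members tested (grey) and members with 11 or more canonical exons (blue). The 3 Rh30 sgDNAJC17 libraries lie between -0.24 and -0.19 for the exon-rich members, and ES8 sgDNAJC17 replicate A lies at 0.01.

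Of 76 members tested in both, 10 fell in both lines, 7 rose in both and HSPA8 alone was called in opposite directions. As shares of the members these are 13.2%, 9.21% and 1.32%, beside 7.66%, 7.07% and 1.56% of 10839 protein-coding genes and 6.18%, 6.17% and 1.27% of all 13841 genes tested in both lines. The Spearman correlation between lines, which share no library, was 0.64 over the 76 members and 0.39 over 10839 protein-coding genes. The members that fell in both were LMF2, MSTO1, PAF1, PCED1A, PRPH, PYCR3, RCOR2, THOC6, TMCO6 and TRMT2A. Those that rose in both were ALYREF, CD63, EIF5A, KRT10, MRPS2, PHF23 and RPL7. Of these genes, PRPH, PYCR3, TRMT2A and RPL7 were not called in Rh30 with the GC and length correction, MSTO1, PAF1 and PRPH were not called in ES8 with the replicate block, and DESeq2 called PRPH in neither line.

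**Figure D4:**
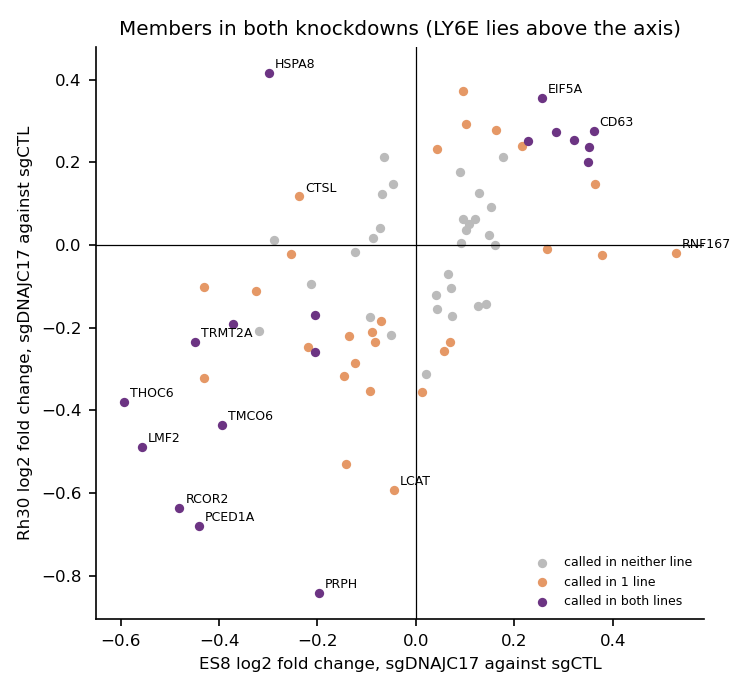
Log2 fold change of members under sgDNAJC17 against sgCTL in ES8 (horizontal axis) and Rh30 (vertical axis), coloured by the number of lines in which the gene was called. Of the purple points, called in both lines, HSPA8 alone has opposite signs; LY6E is above the axis. HSPA8 lies at -0.30 in ES8 and 0.42 in Rh30.

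Among members that act in RNA export, splicing and transcription, THOC6, a subunit of the THO complex that couples mRNA processing to nuclear export, fell furthest in ES8. THOC6 (ENSG00000131652, GRCh38 chromosome 16, 3024027 to 3027755) has 13 canonical exons in 3728 bases with a median gap of 91 bases. Its CPM was 49.1, 49.6 and 47.7 in ES8 sgCTL and 37.9, 29.98 and 30.7 in ES8 sgDNAJC17. In Rh30 it was 43.5, 43.03 and 45.8 with sgCTL and 32.15, 36.1 and 32.55 with sgDNAJC17. The knockdown libraries lay below the sgCTL libraries in both lines, and THOC6 fell by 0.59 ± 0.09 (SE) in ES8 and by 0.38 ± 0.07 in Rh30 on the log2 scale. The edgeR adjusted p was 0.0017 in ES8 and 0.0013 in Rh30.

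ALYREF, an mRNA export adaptor that THO recruits, went the other way. It has 6 canonical exons, and rose by 0.32 ± 0.07 in ES8 and 0.26 ± 0.06 in Rh30. DDX41, a DEAD-box helicase of the spliceosome with 17 canonical exons, fell by 0.22 ± 0.06 in Rh30 and was at -0.14 ± 0.08 in ES8, where it was not called. Of the 226 other genes in the list of splicing and mRNA processing, 79 rose and 21 fell in ES8. In Rh30, 89 rose and 19 fell of 225. More genes of that list rose than fell in each line.

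PAF1, a subunit of the complex that travels with elongating RNA polymerase II, fell by 0.21 ± 0.06 in ES8 and 0.17 ± 0.06 in Rh30. RCOR2, a corepressor partner of the LSD1 demethylase, had 43.7, 44.4 and 38.7 CPM in ES8 sgCTL and 35.0, 30.6 and 26.7 CPM in ES8 sgDNAJC17. Rh30 held less of it, with 11.6, 11.6 and 10.8 CPM in sgCTL and 7.96, 7.18 and 6.46 CPM in sgDNAJC17. Neither line's groups overlapped, and RCOR2 fell by 0.48 ± 0.10 in ES8 and 0.64 ± 0.10 in Rh30. PHF23, a PHD finger protein, rose by 0.35 ± 0.06 and 0.24 ± 0.07, and has 5 canonical exons although its exons merge to 11 blocks. TOE1, a deadenylase of small nuclear RNA maturation, rose by 0.36 ± 0.08 in ES8 and was at 0.15 ± 0.06 in Rh30. PCGF1, a Polycomb component, rose by 0.29 ± 0.06 in Rh30 and was at 0.10 ± 0.08 in ES8. TRMT2A, which methylates tRNA, fell by 0.45 ± 0.07 in ES8 and by 0.23 ± 0.07 in Rh30.

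EIF5A and RPL7 rose in both lines among members of the translation machinery, while EIF3G, an initiation factor subunit, was at 0.15 ± 0.07 in ES8 and 0.09 ± 0.06 in Rh30 and was not called. EIF5A, a translation elongation factor that carries hypusine, had 916, 915 and 900 CPM (rounded to whole CPM) in ES8 sgCTL and 1216, 1077 and 1020 in ES8 sgDNAJC17. In Rh30 it had 1354, 1465 and 1452 CPM with sgCTL and 1765, 1895 and 1748 CPM with sgDNAJC17. Each knockdown library was above each sgCTL library, and EIF5A rose by 0.26 ± 0.07 in ES8 and 0.36 ± 0.06 in Rh30. RPL7, a protein of the large ribosomal subunit, rose by 0.23 ± 0.06 and 0.25 ± 0.07, within a list in which 69 of 84 other cytosolic ribosomal protein genes rose in ES8 and 68 of 84 in Rh30. RPL7, EIF5A and HSPA8 have processed pseudogenes or close copies, and the share of their reads that such copies took or gave is not known.

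Of 6 members in the list of mitochondrial ribosome, import and respiratory chain, 2 rose in ES8 and 3 in Rh30, and none fell. MRPS2 of the small mitochondrial ribosomal subunit rose by 0.35 ± 0.09 and 0.20 ± 0.06. MRPL9 of the large subunit rose by 0.37 ± 0.08 in Rh30 and was at 0.10 ± 0.05 in ES8. Of 207 other genes of the list, 62 rose and 8 fell in ES8, and 102 rose and 6 fell in Rh30.

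Both members in the list of amino acid, nucleotide and sterol synthesis fell in ES8, and PYCR3 also in Rh30. IMPDH2, the rate-limiting enzyme of guanine nucleotide synthesis, had 248, 249 and 246 CPM in ES8 sgCTL and 211, 199 and 192 CPM in ES8 sgDNAJC17. It fell by 0.32 ± 0.06 in ES8 and was at -0.11 ± 0.06 in Rh30. PYCR3, an enzyme of proline synthesis, fell by 0.37 ± 0.10 in ES8 and 0.19 ± 0.06 in Rh30. Of the 66 other genes of amino acid, nucleotide and sterol synthesis, 22 fell and 3 rose in ES8, whereas 6 fell and 15 rose in Rh30.

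LMF2, a membrane protein of the endoplasmic reticulum related to the lipase maturation factor LMF1, has 14 canonical exons in 4742 bases. It had 48.9, 49.5 and 49.7 CPM in ES8 sgCTL and 38.8, 32.5 and 31.1 CPM in ES8 sgDNAJC17. In Rh30 the level was higher, at 100.5, 91.7 and 89.0 CPM with sgCTL, and was 72.1, 66.2 and 60.1 CPM with sgDNAJC17. The groups did not overlap in either line, and LMF2 fell by 0.56 ± 0.09 in ES8 (edgeR adjusted p = 0.0018) and 0.49 ± 0.07 in Rh30 (edgeR adjusted p = 0.00036). PCED1A, a member of the PC-esterase domain family, fell by 0.44 ± 0.08 in ES8 and 0.68 ± 0.08 in Rh30. TMCO6, a transmembrane and coiled-coil protein, fell by 0.39 ± 0.11 and 0.44 ± 0.09.

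CD63, a tetraspanin of late endosomes and exosomes, had 377, 367 and 368 CPM in ES8 sgCTL and 527, 468 and 456 CPM in ES8 sgDNAJC17. It rose by 0.36 ± 0.06 in ES8 and 0.28 ± 0.08 in Rh30. RNF167, a lysosome-associated ubiquitin ligase, had the largest rise in ES8 (0.53 ± 0.07) and was at -0.02 ± 0.06 in Rh30. The lysosomal enzymes ARSA and CTSL fell in ES8, by 0.43 ± 0.13 and 0.24 ± 0.07. In Rh30 they were at -0.10 ± 0.20 and 0.12 ± 0.07, and neither was called.

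Of 4 members in the list of cell cycle, replication and mitosis, 1 fell in ES8 and none was called in Rh30. AURKB, the Aurora kinase of the chromosomal passenger complex, was at 0.16 ± 0.06 in ES8 and 0.00 ± 0.06 in Rh30 (edgeR adjusted p of 0.09 and 0.99). The study names AURKB for exon skipping in both lines, which gene-level counts do not show. CDC20, an activator of the anaphase-promoting complex, was at 0.11 ± 0.06 and 0.05 ± 0.06. CDK5, an atypical cyclin-dependent kinase, fell by 0.25 ± 0.08 in ES8. Of the 148 other genes of the list, 34 fell and 18 rose in ES8, and 38 fell and 23 rose in Rh30. TUBG1, the gamma-tubulin of centrosomes, was in the list of cytoskeleton and keratins instead. It fell by 0.18 ± 0.06 in Rh30 and was at -0.07 ± 0.07 in ES8.

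The remaining named members include several with low levels or overlapping neighbours. PRPH, a neuronal intermediate filament, fell by 0.20 ± 0.06 in ES8, where sgCTL libraries held 227 to 237 CPM. In Rh30 PRPH fell by 0.84 ± 0.30 from only 36 to 50 raw counts in sgCTL libraries, and its exons overlap an opposite-strand gene over 56.2% of their length. DESeq2 called neither AGER nor ARSA in ES8. LCAT, the lecithin-cholesterol acyltransferase of plasma, fell by 0.59 ± 0.16 in Rh30 and was at -0.04 ± 0.13 in ES8. TMEM150A fell by 0.53 ± 0.12 in Rh30 and TRAPPC14, a subunit of a trafficking complex, by 0.32 ± 0.09. CCDC74A fell by 0.56 ± 0.08 in ES8 and was not tested in Rh30, where it had 0 to 2 counts per parental library. HRAS, the small GTPase, rose by 0.38 ± 0.11 in ES8 and was at -0.02 ± 0.06 in Rh30. KRT10, a keratin, rose by 0.28 ± 0.07 and 0.27 ± 0.07. The counting is not stated to use strand, and 17 members share over 10% of their exonic bases with an opposite-strand gene, THOC6 (17.96%) and TOE1 (23.5%) among them.

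Whether the lines differed was tested with the interaction of line and guide over the 12 parental libraries. Of 79 members, 3 had a higher and 1 a lower response in Rh30 than in ES8, against a background of 5.23% higher and 4.55% lower over 18899 genes. Of these, LY6E alone differed 2-fold, beside a background of 0.55% higher and 0.714% lower. HSPA8 (ENSG00000109971, GRCh38 chromosome 11, 123057489 to 123063230) encodes HSC70, the constitutive HSP70 chaperone, and was the member with the highest CPM per kilobase of exon (482 CPM per kb in sgCTL).

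The CPM of HSPA8 was 2320, 2263 and 2324 in ES8 sgCTL and 1889, 1920 and 1898 in ES8 sgDNAJC17. In Rh30 it was 2045, 2345 and 2725 with sgCTL and 2723, 3125 and 3533 with sgDNAJC17. The ES8 groups were well apart, while in Rh30 the highest sgCTL library and the lowest sgDNAJC17 library met at nearly the same level. Each Rh30 sgDNAJC17 library was above the sgCTL library of the same letter, and the log2 fold change with the letter as a block was 0.42. HSPA8 fell by 0.30 ± 0.04 in ES8 (edgeR adjusted p = 0.0015) and rose by 0.42 ± 0.10 in Rh30 (edgeR adjusted p = 0.008). The difference between lines was 0.74 ± 0.13 on the log2 scale (edgeR adjusted p = 0.0017). Of 107 other chaperone and folding genes, 22 rose and 19 fell in ES8, and 46 rose and 10 fell in Rh30.

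RNF167 differed by -0.53 ± 0.10 between lines (edgeR adjusted p = 0.0038) and CTSL by 0.38 ± 0.11 (edgeR adjusted p = 0.028). LY6E, a GPI-anchored surface protein, differed by 3.9999 ± 0.59, and this value rests on very few reads in Rh30. LY6E had 12273 to 13013 counts per library in ES8 sgCTL and 0, 2 and 1 counts in Rh30 sgCTL. The Rh30 sgDNAJC17 libraries held 22, 15 and 19 counts of LY6E, and the Rh30 ΔRRM libraries 26, 19 and 9. Summed over libraries and scaled by depth, the ratio of Rh30 sgDNAJC17 to sgCTL was 19.2, with an exact 95% interval of 6.23 to 95.8 that covers counting error only. PRPH, with 11081 to 11887 counts per library in ES8 sgCTL, had 36 to 50 counts in Rh30 sgCTL, 16 to 36 in Rh30 sgDNAJC17 and 16 to 24 in Rh30 ΔRRM libraries. The summed level of 14 epithelial markers was 152 to 163 CPM in Rh30 sgCTL, 161 to 175 in sgDNAJC17 and 191 to 208 in ΔRRM libraries, and its part in the LY6E reads was not tested. In Rh30 sgCTL, 2 of the 14 were at 1 CPM or more and CLDN7 and RAB25 had 0 counts, while 5 of the 14 were at 1 CPM or more in the other Rh30 groups.

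Of the members, 3 held a gene for a small nucleolar or Cajal body RNA within their span, and these RNAs showed a further readout that the rule did not use. SNORD14E lies inside HSPA8 (GRCh38 chromosome 11, 123058077 to 123058161), and is a box C/D small nucleolar RNA, a class processed from excised introns. Its first 30 bases in the GENCODE transcript are shown because they hold the core of the conserved C box, in capitals, a motif of this class:
SNORD14E: tcacaaTGATGAatggtccaaaacattcgc

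SNORD14E had 26, 20 and 19 counts in ES8 sgCTL, 84, 86 and 102 in ES8 sgDNAJC17 and 14, 20 and 16 in ES8 ΔRRM libraries. In Rh30 it had 2, 2 and 0 counts with sgCTL, 18, 42 and 18 with sgDNAJC17, and 0, 2 and 1 in ΔRRM libraries. The knockdown libraries stood above both other groups in each line. SNORD14E rose by 2.33 ± 0.20 in ES8 (edgeR adjusted p = 0.00015) and 4.28 ± 0.70 in Rh30 (edgeR adjusted p = 0.00062), while its host HSPA8 fell in ES8 and rose in Rh30. SNORD14C and SNORD14D, also in HSPA8, had 0 counts in all 18 libraries. HSPA8 shares 175 of its exonic bases with same-strand genes, and how reads in such overlaps were counted is not known here. These 0 counts therefore do not show that SNORD14C and SNORD14D were absent. SCARNA12, a Cajal body RNA inside the span of PHB2, rose by 1.12 ± 0.23 in ES8 and 1.28 ± 0.32 in Rh30. In ΔRRM libraries SCARNA12 was at -0.24 ± 0.29 against sgCTL in ES8, where it was not called. In Rh30 ΔRRM libraries it was called higher than in sgCTL (1.17 ± 0.35, edgeR adjusted p = 0.0025) and was at -0.13 ± 0.30 against sgDNAJC17 (edgeR adjusted p = 0.74). PHB2 itself, a prohibitin of the inner mitochondrial membrane, was at -0.12 ± 0.06 and -0.02 ± 0.07, and shares 239 of its exonic bases with same-strand genes. Libraries of this kind capture small RNAs poorly, and whether these reads came from the mature small RNA or from unspliced host transcript was not tested.

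The next question was how the members stood in cells with the ΔRRM allele and sgDNAJC17. This comparison uses the same sgCTL libraries as the knockdown comparison of the line, so values are placed side by side. In ES8, 1 of 79 members was called up against sgCTL and none down, with a background of 0.093% up and 0.0814% down of 17199 genes. None changed 2-fold, beside 0.0116% up and 0.0233% down. By edgeR, 16 members had an unadjusted p below 0.05, and DESeq2 also called 1 up and none down. The count was 5 up without ΔRRM replicate A and 0 up without any 1 of the sgCTL libraries. The called gene was GPSM3, a regulator of G-protein signalling, at 6.565, 6.94 and 6.15 CPM in sgCTL and 10.9, 11.1 and 9.76 CPM in ΔRRM libraries (log2 fold change 0.68 ± 0.10). The members' median was 0.10, and exon-rich members were at 0.06, members with 8 to 10 exons at 0.10 and members with under 8 exons at 0.10. The parental sgDNAJC17 libraries were -0.14, 0.04 and 0.14 in those bins. Compact genes with fewer than 8 blocks had the same median of 0.10 in ΔRRM libraries against sgCTL, so it is not particular to members. Longer genes with 8 or more blocks were at -0.02 and all protein-coding genes with the count floor at 0.00.

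Against ES8 sgDNAJC17, 13 members were higher and 1 was lower in ES8 ΔRRM libraries, beside 7.35% higher and 7.36% lower of 17099 genes. None differed 2-fold, beside 0.48% higher and 1.49% lower. THOC6 was at 50.2, 63.4 and 55.5 CPM in ES8 ΔRRM libraries and was 0.80 ± 0.12 above sgDNAJC17 on the log2 scale. LMF2 was 0.57 ± 0.11, PCED1A 0.57 ± 0.11, RCOR2 0.53 ± 0.12 and TRMT2A 0.60 ± 0.10 above it, all called. HSPA8 was 0.42 ± 0.08 above sgDNAJC17, and RNF167 was the member called lower, with a log2 fold change of -0.35 ± 0.09. None of these was called against sgCTL, where THOC6 was the furthest away at 0.20 ± 0.08. Apart from PCED1A, these members were named for changes in the same ES8 sgDNAJC17 libraries. Their differences from those libraries are therefore not independent of that choice.

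**Figure D5:**
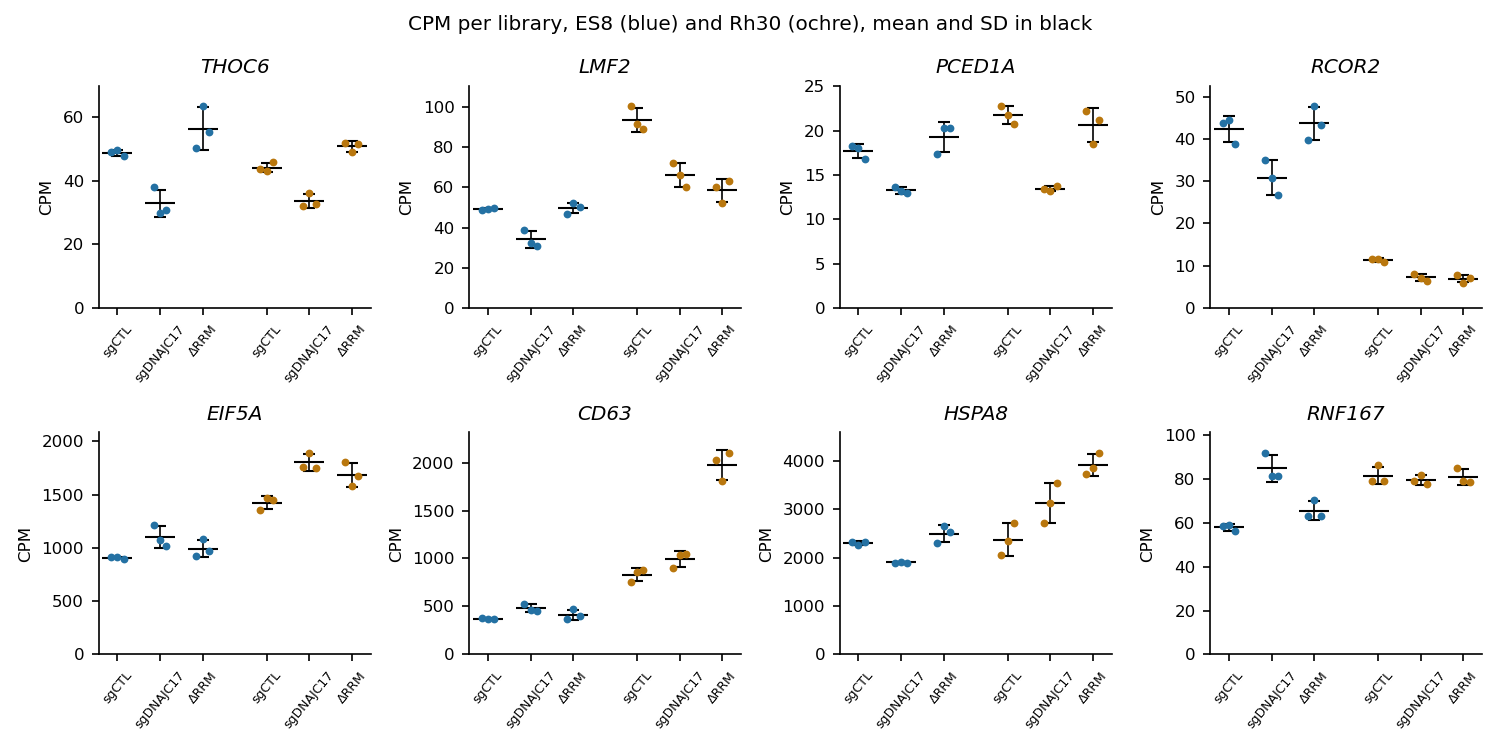
TMM-scaled CPM of 8 members in each library (points; blue for ES8, ochre for Rh30) with the group mean and SD of 3 libraries in black; ΔRRM marks cells with the deletion allele and sgDNAJC17. THOC6, LMF2, PCED1A and RCOR2 lie lowest with sgDNAJC17 in ES8, and in Rh30 ΔRRM libraries THOC6 was called above sgCTL, LMF2 and RCOR2 were called below it and PCED1A was not called.

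In Rh30, ΔRRM libraries differed widely from sgCTL, with 33.8% of 15442 genes called up and 35% called down. Of 76 members, 27 rose and 27 fell (35.5% each), which is close to that background. Of 11068 protein-coding genes with the count floor, 36.19% were called up and 43.26% down, so members fell less often than this matched set. LY6E and CD63 rose 2-fold and 2 members, ARSA among them, fell 2-fold, beside 6.66% and 3.32% of genes. THOC6 was at 51.9, 48.9 and 51.5 CPM and PCED1A at 22.2, 18.4 and 21.2 CPM in these libraries, with log2 fold changes against sgCTL of 0.24 ± 0.07, called higher, and -0.04 ± 0.08, not called. LMF2 remained low at 60.4, 52.1 and 63.3 CPM, a fall of 0.64 ± 0.07 against sgCTL, and RCOR2 fell by 0.67 ± 0.10. TMCO6 fell by 0.48 ± 0.08 and MSTO1, a mitochondrial distribution factor, by 0.59 ± 0.07.

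Beside LY6E, CD63 rose most and ARSA fell most among members in Rh30 ΔRRM libraries. CD63 had 2024, 1804 and 2103 CPM against 756, 860 and 876 CPM in sgCTL, and rose by 1.29 ± 0.07. ARSA fell by 1.62 ± 0.27 and SLC7A3, a cationic amino acid transporter, by 0.90 ± 0.16. STOML2, a mitochondrial inner membrane protein, rose by 1.00 ± 0.07, and AURKB rose by 0.49 ± 0.06. In the bins of canonical exons, members with 11 or more had 6 up and 12 down with a median of -0.18, and members with fewer than 8 had 9 up and 5 down with a median of 0.22. With the GC and length correction both medians were near 0, at 0.01 (8 up and 9 down) and -0.01 (8 up and 6 down). With library size alone as the scale they were -0.42 and -0.02, and 15 members rose and 37 fell in all.

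Against Rh30 sgDNAJC17, 23 members were higher and 14 lower in Rh30 ΔRRM libraries, beside 29.4% and 30.5% of 15309 genes. Of the members, 2 were more than 2-fold lower, ARSA among them, and none was 2-fold higher, beside 3.36% and 4.42% of genes. THOC6 was 0.60 ± 0.08 and PCED1A 0.63 ± 0.10 above sgDNAJC17. LMF2 was at -0.17 ± 0.08 and RCOR2 at -0.04 ± 0.12, and neither was called. PCED1A and RCOR2 were named for their falls in these same Rh30 sgDNAJC17 libraries, so their values here are not independent of that choice.

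In control cells, before any knockdown, levels differed widely between members. Per kilobase of exon, HSPA8 (482 CPM per kb), EIF5A (415), RPL7 (294), CDC20 (257) and CD63 (228) were highest over the 6 sgCTL libraries. Between lines, 37 members were higher and 33 lower in Rh30 than in ES8, against 42% and 45.5% of 17925 genes, and 10 and 18 of them differed at least 2-fold, beside 22.2% and 28.7% of genes. CDC20 was higher in Rh30, with 781, 834 and 837 CPM against 232, 231 and 227 CPM in ES8 (log2 difference 1.80 ± 0.05). PDZD11 was higher by 1.76 ± 0.05 and PLK3, a stress-responsive polo-like kinase, by 1.72 ± 0.09. LY6E, CCDC74A and PRPH were the furthest below their ES8 levels, with fitted log2 differences of -13.26, -8.48 and -7.82. Those of LY6E and CCDC74A rest on 0 to 2 counts per Rh30 sgCTL library and depend on the prior count of the fit. LY6E, CCDC74A and PRPH reached the count floor through ES8 alone, so a lower level in Rh30 follows from how they were chosen. The same holds for GPSM3, KRT17 and PAQR6, with 16 to 26, 5 to 10 and 7 to 21 counts per Rh30 sgCTL library. Such members were kept in the counts of higher and lower members given above.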

How the data were processed

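The submitters' processing notes name Trimmomatic 0.36, STAR 2.5.2b and featureCounts of Subread 1.5.2. The deposited values are raw counts per gene and library, on GRCh38 coordinates, with no normalization by the authors and no stated strand setting. A total of 18 libraries in 6 groups of 3 were used, with totals of 35342393 to 48245989 counts. Biotypes, canonical transcripts, GC content and retained-intron transcripts were taken from GENCODE (lifted to GRCh37) by gene identifier (55082 of 57500 matched), since the supplied genome is GRCh37. The intron sequences were not analysed here.

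Counts were tested pairwise with edgeR 4.0.16 (quasi-likelihood, TMM scaling, filterByExpr) in R 4.3.3, and a gene was called at an adjusted p below 0.05 over all genes tested. Log2 CPM used a prior count of 2. ± is a standard error derived from the quasi-likelihood F statistic, as the absolute log2 fold change divided by the square root of F. It is not reliable where a group holds very few reads. It is therefore left out for LY6E, CCDC74A and PRPH between the lines. The fits were tested on simulated data. DESeq2 1.42.0 was an alternative, as were other scalings, filters, a GC and length correction, a replicate block and each library left out. The study used DESeq2 and a 2-fold limit. Named members are those with the largest called changes per comparison, the smallest interaction p, the extremes of level and structure, the neighbours of each limit, the called members with the smallest p of 19 gene lists, and AURKB, which the study names. The members and lists were chosen with earlier results of these data known. Other members given by name (such as TMCO6, EIF3G and PHB2), the compact genes outside the rule and the small RNAs were named after their values were seen. The values of 1 member are not reported here.

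Deviations from the group mean over genes with a mean count of 100 or more correlated between same-letter libraries of Rh30 sgCTL and sgDNAJC17 at 0.58 (A), 0.29 (B) and 0.35 (C), so the letters may mark pairs there, a hint from the data and not the design. In the ES8 pair the values were -0.14, -0.37 and 0.33. Intervals cover counting error only, since reads carry no molecular identifiers.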

Additional observations from a re-analysis of the deposited data

Results flagged for a closer look

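A total of 4 members responded differently to sgDNAJC17 in Rh30 than in ES8 by the test of the interaction. The difference in log2 fold change was 3.9999 for LY6E, 0.74 for HSPA8, 0.38 for CTSL and -0.53 for RNF167. HSPA8 rose in Rh30 and fell in ES8, and each ES8 sgDNAJC17 library was below each ES8 sgCTL library. LY6E rests on 3 counts over the Rh30 sgCTL libraries. RNF167 and CTSL changed in ES8 and were not called in Rh30. With the GC and length correction, 16 members had a higher and 1 a lower response in Rh30, so the number of members that differ depends on that setting. The share of all genes called with that correction is not given here. The 16 members are therefore not set against a background.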

How the results depend on the processing

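Counts of members up and down are given as up/down, for the knockdown in ES8 (reported 11/17) and Rh30 (14/23), ΔRRM against sgCTL in ES8 (1/0) and Rh30 (27/27), ΔRRM against sgDNAJC17 in ES8 (13/1) and Rh30 (23/14), sgCTL of Rh30 against ES8 (37/33) and the interaction (3/1). With the replicate block, ES8 knockdown had 11/10, Rh30 knockdown 21/28 and ES8 ΔRRM against sgDNAJC17 9/0. The block lost ES8 calls of AGER, ARSA, CDK5, CTSL, MSTO1, PAF1 and PRPH and no call of a named member in Rh30. With the GC and length correction, ES8 knockdown had 17/30, ES8 ΔRRM against sgDNAJC17 28/8 and the interaction 16/1; with the block added these were 16/30, 26/4 and 23/3. With all libraries in 1 fit, 11 members fell in ES8, 6 were lower in ES8 ΔRRM than sgDNAJC17, and 3 in the interaction. With library size alone, Rh30 ΔRRM had 15 up against sgCTL and 31 down against sgDNAJC17, and the interaction had 3 down. DESeq2 gave 2 down in the interaction. The GC and length correction lost the Rh30 calls of DDX41, GHDC, PDZD11, PRPH, PYCR3, RPL7, TRAPPC14 and TRMT2A. Without a filter on low counts the interaction had 3 down, and ES8 ΔRRM had 2 up against sgCTL and 2 down against sgDNAJC17. At an adjusted p below 0.01, ES8 knockdown had 4/8, Rh30 knockdown 8/11 and ES8 ΔRRM against sgDNAJC17 7/0. With a 2-fold limit the counts were 0/0 and 1/0 for the knockdowns, 0/0 and 2/2 against sgCTL, 0/0 and 0/2 against sgDNAJC17, 10/18 between lines and 1/0 in the interaction.

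With each library left out in turn, ES8 knockdown had 4 to 14 up and 8 to 30 down, and Rh30 knockdown 7 to 17 up and 13 to 25 down. ΔRRM against sgCTL had 0 to 5 up and 0 to 0 down in ES8 and 25 to 30 up and 22 to 27 down in Rh30. ΔRRM against sgDNAJC17 had 7 to 20 up and 0 to 1 down in ES8 and 22 to 24 up and 10 to 16 down in Rh30. Between lines there were 36 to 39 up and 32 to 33 down, and in the interaction 2 to 10 up and 1 to 3 down. The highest ES8 counts (30 down with sgDNAJC17, 20 up against it, 10 up in the interaction) came without sgDNAJC17 replicate A. The causes of these shifts were not tested. The shares of all genes called in the alternative fits are not given here, so these counts are not set against a background.

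Other limits of span, blocks and count left the ES8 percent down between 18.9 and 22.6 and moved the Rh30 median log2 fold change to between -0.15 and 0.21, the latter over 9 genes under 4000 bases. With 8 or more canonical exons in place of blocks, chosen after seeing the data, the medians were -0.04 in ES8 (157 genes) and -0.10 in Rh30 (154 genes), with 19.1% and 25.3% called down. Members with 11 or more canonical exons had 5 to 16 down and at most 1 up in both knockdowns, with each library left out and under the other scalings, tools, filters, corrections and blocks; these counts were not made for the stricter p and 2-fold limits. With 3 platings per group and changes mostly below 0.6 on the log2 scale, calls near the threshold depend on single libraries.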
